A study of Mus musculus with 12 samples.

Results

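Fragments of 5 mitochondrial tRNAs were followed through chemical liver injury in mice with and without NSun2, a methyltransferase that places 5-methylcytosine on tRNAs. The tRNAs were Ser-TGA, Asp-GTC, Lys-TTT, Gly-TCC and Arg-TCG, listed in the deposited table as chrM.tRNA17-SerTGA, chrM.tRNA7-AspGTC, chrM.tRNA8-LysTTT, chrM.tRNA9-GlyTCC and chrM.tRNA10-ArgTCG. Every distinct sequence listed under these mature tRNAs and under no other was taken, whatever its subtype, which gave 4686 of 87699 sequences and 30423 of 1705883 reads. Of these sequences, 2742 were seen in a single read, and 1 sequence shared with a nuclear tRNA was left out. They held 11.9% of the 255169 reads of mature mitochondrial tRNAs.

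The 12 libraries came from livers of male B6D2F1/Crl mice aged 8 to 12 weeks, with 2 libraries in each of 6 groups. Mice were wild type (WT) or NSun2-/- (NS-KO), the latter carrying a 56-bp deletion made with Cas9 and bred as littermates of WT by heterozygous mating. Each genotype was taken after corn oil alone (D0), 3 days after 1 intraperitoneal injection of 40% carbon tetrachloride (CCl4) in corn oil at 2 mL/kg (D3), or on day 27 of repeated injections (D27). All libraries held RNA of 14 to 40 nt that had been deacylated, freed of cyclic phosphate, phosphorylated at the 5′ end and demethylated at m1A and m3C. Neither the Nsun2 deletion nor the identity of the tissue can be checked in these reads, which come from tRNAs only.

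The mitochondrial genome encodes its own small set of tRNAs, which read the codons of the few respiratory chain proteins made inside the organelle. They are cut out of long transcripts in which they separate the protein-coding genes, receive a CCA tail, and are then modified and charged with an amino acid. Cleavage of a mature tRNA leaves 5′ fragments that begin at the first base, 3′ fragments that end in the CCA tail, or internal pieces. NSun2 is known to methylate cytosines of both nuclear and mitochondrial tRNAs, and nuclear tRNAs that lack this mark are known to be cut more readily.

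All 5 listed positions coincide base for base with tRNA genes of the mitochondrial chromosome in the RefSeq annotation of GRCm38.p6. mt-Ser-TGA (TrnS1, M:6870-6938) lies between COX1, whose last 3 bases it overlaps, and mt-Asp-GTC (TrnD, M:6942-7011), and it is read from the opposite strand. mt-Asp-GTC is followed by COX2, and mt-Lys-TTT (TrnK, M:7700-7764) lies between COX2 and ATP8. mt-Gly-TCC (TrnG, M:9391-9458) lies between COX3 and ND3, and mt-Arg-TCG (TrnR, M:9808-9875) between ND3 and ND4L. The mature sequences, as the table lists them with the CCA tail and with the anticodon in capitals, show where the fragments described here begin and end.
mt-Ser-TGA: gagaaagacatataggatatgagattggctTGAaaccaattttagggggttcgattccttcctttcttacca
mt-Asp-GTC: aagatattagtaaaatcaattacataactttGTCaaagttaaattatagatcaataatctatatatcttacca
mt-Lys-TTT: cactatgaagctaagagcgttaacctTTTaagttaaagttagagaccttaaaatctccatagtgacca
mt-Gly-TCC: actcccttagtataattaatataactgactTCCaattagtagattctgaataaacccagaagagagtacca
mt-Arg-TCG: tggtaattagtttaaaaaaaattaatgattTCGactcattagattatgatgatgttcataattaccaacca

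The 5 tRNAs gave different pieces. mt-Ser-TGA was seen most often as its 5′ part, with 45.7% of 10224 pooled reads starting at base 1 and a mean length of 21.0 nt. In WT libraries 38.2% to 57.9% of its reads started at base 1, and 28.5% to 47.3% at base 37 to 39. mt-Gly-TCC gave almost no 5′ fragments (0.241% of 19113 reads) and was seen as its 3′ part, with 52.9% of reads ending in the last 3 bases and a mean length of 34.3 nt. These pooled values are weighted to the NS-KO D3 libraries, at 42.4% and 30.6%, and the 10 other libraries were at 66.8% to 84.8%. mt-Lys-TTT gave both ends, with 47.6% of 416 reads starting at base 1 and 19.95% ending in the last 3 bases. mt-Arg-TCG gave internal pieces across the anticodon, with none of 621 reads starting at base 1. mt-Asp-GTC was listed with 49 reads in all, the fewest of the 21 mature mitochondrial tRNAs of the table. Between 49.0% and 63.9% of the reads of each tRNA matched it without a mismatch. Of the reads with a mismatch, 59.9% (mt-Lys-TTT) to 69.6% (mt-Asp-GTC) of those of each tRNA had it at the last base of the read.

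The sequences with the most reads show these shapes, again with anticodon bases in capitals where a fragment holds them. The first pair are 5′ fragments of mt-Ser-TGA, the next pair 3′ fragments of mt-Gly-TCC that differ by 1 base at the start, and the last pair the leading fragments of mt-Lys-TTT and mt-Arg-TCG. Numbers count bases from the 5′ end of the mature tRNA.
mt-Ser-TGA 1-26: gagaaagacatataggatatgagatt
mt-Ser-TGA 1-22: gagaaagacatataggatatga
mt-Gly-TCC 33-71: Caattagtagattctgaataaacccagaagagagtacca
mt-Gly-TCC 34-71: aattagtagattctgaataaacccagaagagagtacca
mt-Lys-TTT 1-29: cactatgaagctaagagcgttaacctTTT
mt-Arg-TCG 27-48: gattTCGactcattagattatg

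**Figure D1:**
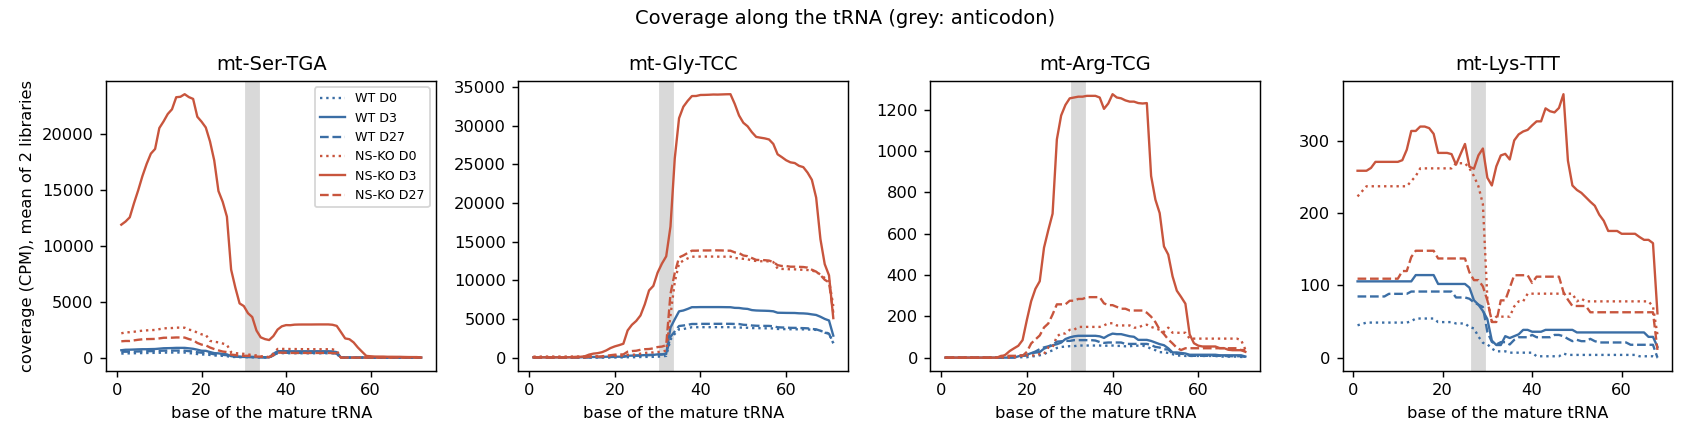
Coverage along the mature tRNA (x axis, base number) in CPM, reads scaled to the total of tRNA reads in each library (y axis, mean of 2 libraries), for 4 tRNAs and 6 groups, with the anticodon shaded. mt-Ser-TGA in NS-KO was covered mainly before its anticodon, mt-Gly-TCC after it and mt-Arg-TCG across it. In WT, 28.5% to 47.3% of mt-Ser-TGA reads started after the anticodon, at base 37 to 39. NS-KO D3 (solid red) stands highest along most of each tRNA.

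Libraries differed in depth and composition along the lines of genotype. Total reads ran from 81515 to 275568 in WT and from 46937 to 221446 in NS-KO, so that the limit of 3 reads for a count of 0 lay between 10.9 and 63.9 CPM. Mature mitochondrial tRNAs made up 4.81% to 12.0% of reads in WT and 20.4% to 50.1% in NS-KO. The 5′ class tRF-5c took 35.6% to 71.5% in WT and 12.5% to 30.4% in NS-KO. A share of reads in one class moves every other share, so each difference between genotypes is given after TMM scaling and, where it matters, under other scalings. Fewer cells, fewer mitochondria and less tRNA per cell cannot be told apart in bulk liver.

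mt-Ser-TGA was highest by far in NS-KO livers at D3. Its sum was 826 and 886 CPM in the WT D0 libraries, 1816 and 1112 at D3, and 1296 and 827 at D27. In NS-KO it was 2528 and 4389 CPM on D0, 16870 and 36970 on D3 and 1661 and 2817 on D27. Both NS-KO D3 libraries were above all 10 others, and the lowest of the remaining NS-KO libraries lay below the highest WT library. At D3 the fitted log2 fold change of NS-KO over WT was 4.08 (SE 0.37, limma adjusted p = 2.242e-05), while at D0 it was 0.40 (95% interval -0.43 to 1.22) and at D27 -0.49 (-1.31 to 0.34).

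mt-Gly-TCC, the most abundant of the 5 by reads, followed the same order with a smaller step. Its sum was 3319 and 4589 CPM in WT on D0, 9262 and 3946 on D3 and 5645 and 3172 on D27. In NS-KO it was 13810 and 12760 CPM on D0, 25330 and 43890 on D3 and 15370 and 12450 on D27. No NS-KO library overlapped the WT range in CPM, and both D3 libraries lay above the other NS-KO libraries. In CPM without TMM scaling, 121 of all 165 sums were called higher in NS-KO over days in limma, with a median of 1.025. How many sums separated the genotypes without overlap was not counted. After TMM scaling mt-Gly-TCC passed the test at D3 (log2 fold change 2.42, SE 0.27, limma adjusted p = 6.561e-05). Its log2 fold change was 0.21 (-0.39 to 0.80) at D0 and 0.15 (-0.44 to 0.75) at D27.

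The scarcer mt-Arg-TCG was at 75.1 and 55.7 CPM in WT on D0, 98.1 and 166 on D3 and 70.2 and 120 on D27. In NS-KO it was at 198 and 277 CPM on D0, 844 and 2034 on D3 and 298 and 365 on D27. All NS-KO libraries were above all WT libraries, and the D3 libraries, with 187 and 259 reads, were above the rest. In CPM without TMM scaling, 121 of all 165 sums were called higher in NS-KO over days. The WT values rest on 8 to 33 reads per library. At D3 the log2 fold change was 3.13 (SE 0.65, limma adjusted p = 0.00374).

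mt-Lys-TTT was at 63.8 and 55.7 CPM in WT on D0, 233 and 82.7 on D3 and 179 and 83.5 on D27. In NS-KO it was at 325 and 426 CPM on D0, 542 and 903 on D3 and 256 and 243 on D27. Every NS-KO library was above every WT library, by little at D27, where the counts were 12 and 14 reads. Here too the scale was CPM, in which 121 of all 165 sums were called higher over days. At D3 the log2 fold change was 2.16 (SE 0.30, limma adjusted p = 0.0002757), and at D0 0.97 (0.29 to 1.64, adjusted p = 0.06443). At D27 the fitted value was -0.48 (-1.16 to 0.20) after TMM scaling, of opposite sign to the difference in CPM.

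mt-Asp-GTC was too rare for the fit. Its counts were 1 to 4 reads in each WT library and 3, 3, 15, 8, 2 and 1 in the NS-KO libraries, the 15 and 8 at D3. The corresponding levels were 3.76 to 25.5 CPM in WT and 17.4 to 67.7 CPM in NS-KO, with the ranges overlapping. Its neighbour mt-Ser-TGA, read from the other strand, had 10224 reads. The reverse complement of mt-Ser-TGA shares 37 bases with the listed mt-Asp-GTC precursor.

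**Figure D2:**
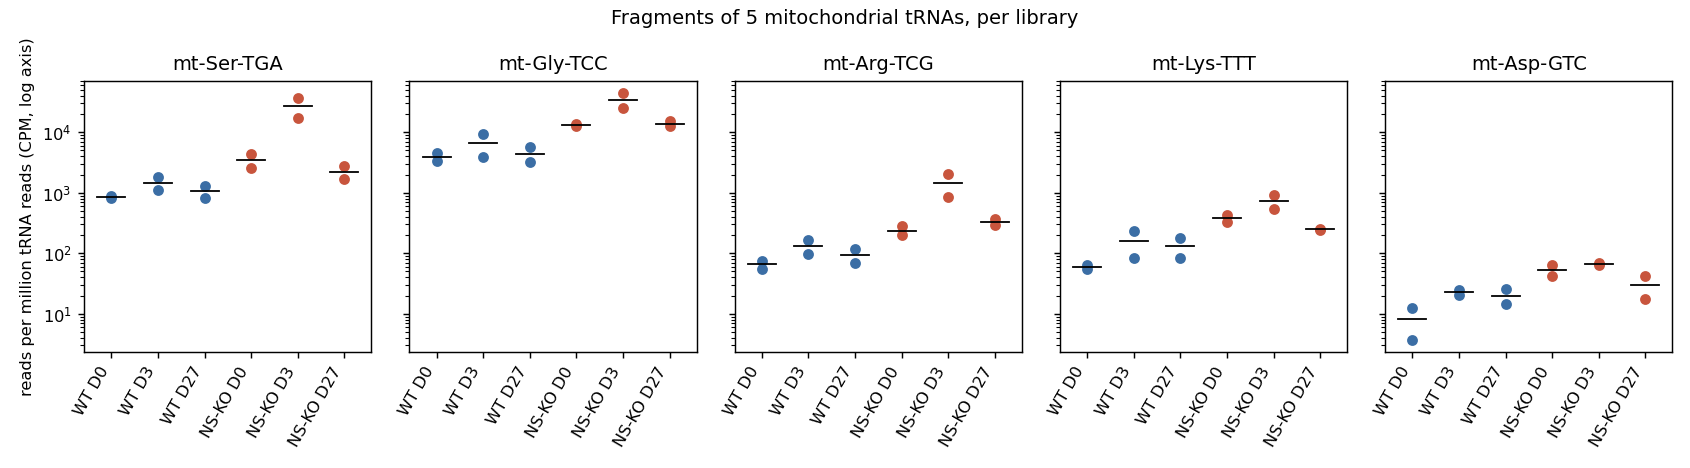
Level of each tRNA's fragments in CPM (log axis) in every library (points, 2 per group) with the group mean (line), WT in blue and NS-KO in red. The NS-KO D3 pair is the highest for the first 4 tRNAs, at 16870 and 36970 CPM for mt-Ser-TGA.

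Over all days, the sums of the 4 measured tRNAs were higher in NS-KO. At the level of tRNA sums, 165 of 430 passed the filter on low reads, and 44.2% of them were called in NS-KO against WT over days in either direction. All 4 tested members were called higher, with log2 fold changes of 1.33 (SE 0.21) for mt-Ser-TGA, 1.21 (SE 0.38) for mt-Arg-TCG, 0.93 (SE 0.15) for mt-Gly-TCC and 0.88 (SE 0.18) for mt-Lys-TTT. After TMM scaling, with both NS-KO D3 libraries left out (chosen after the data were seen), none was called in limma, and mt-Ser-TGA stood at -0.0072 (adjusted p = 0.9734). The call of mt-Arg-TCG over days was lost without WT D0 replicate 2, WT D3 replicate 1, WT D27 replicate 1, NS-KO D0 replicate 2, NS-KO D3 replicate 2 or NS-KO D27 replicate 1.

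Day by day, 0 of 4 were called in limma at D0, where 12.7% of all sums were and 1 member, mt-Lys-TTT, had an unadjusted p under 0.05. mt-Lys-TTT was called at D0 without either NS-KO D3 library (1.01 and 1.02). At D3 all 4 were called, beside 33.3% of all sums, and their median log2 fold change was 2.78. At D27 again 0 of 4 were called, beside 8.48% of all sums, with no member at an unadjusted p under 0.05.

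Within a genotype, WT livers showed no called change in these tRNAs after CCl4. In limma 0 of 4 were called at D3 against D0, and 0 of 4 at D27 against D0, in comparisons where 0% of all sums passed. Unadjusted p-values under 0.05 numbered 0 at D3 and 1 at D27. For mt-Ser-TGA the WT change at D3 was -0.11 (95% interval -0.93 to 0.72), and for mt-Gly-TCC -0.21 (-0.81 to 0.39).

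After TMM scaling all 4 rose in NS-KO from D0 to D3, where 29.1% of all sums were called. The log2 fold changes were 3.58 for mt-Ser-TGA (SE 0.37, limma adjusted p = 5.169e-05), 3.02 for mt-Arg-TCG, 2.01 for mt-Gly-TCC and 1.52 for mt-Lys-TTT. The call of mt-Lys-TTT was lost without NS-KO D0 replicate 1 (1.33, adjusted p = 0.05049) or NS-KO D3 replicate 2 (1.16, adjusted p = 0.05523), with library size alone (0.89, adjusted p = 0.2892) and with reads outside tRF-5c (1.05, adjusted p = 0.05629). All 4 were lower at D27 than at D3, with 28.5% of all sums called, and mt-Ser-TGA fell by 4.13 on the log2 scale. At D27 against D0 in NS-KO 0 of 4 were called in limma, beside 1.82% of all sums, and no member had an unadjusted p under 0.05. These comparisons share the NS-KO D3 or D0 libraries.

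After TMM scaling, the change from D0 to D3 differed between genotypes for mt-Ser-TGA and mt-Gly-TCC. The interaction was 3.68 (SE 0.53, limma adjusted p = 0.0009905) for mt-Ser-TGA and 2.22 (SE 0.38, adjusted p = 0.002688) for mt-Gly-TCC, in a comparison that called 15.8% of all sums. It was 2.88 (0.82 to 4.93, adjusted p = 0.062) for mt-Arg-TCG and 1.20 (0.24 to 2.15, adjusted p = 0.0894) for mt-Lys-TTT. With library size alone mt-Gly-TCC was no longer called (0.70, adjusted p = 0.3749), and with reads outside tRF-5c mt-Arg-TCG was (2.24, adjusted p = 0.04158). mt-Arg-TCG also passed without WT D3 replicate 2, either WT D27 library or NS-KO D3 replicate 1, at up to 3.74. For D27 against D0 no interaction passed in limma for the 4 tRNAs or for any sum (0%), and 1 of the 4 had an unadjusted p under 0.05.

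The scaling changed what was seen at D0 and D27 but not the direction at D3. With library size alone, the median over all 165 sums was 1.46 at D0 and 1.44 at D27, and all 4 tRNAs were called higher at D0, where 60.6% of all sums were. At D27 mt-Gly-TCC and mt-Arg-TCG were then called, beside 63.6% of all sums. At D3, where the median under this scaling was 0.10, the log2 fold changes were 4.12 for mt-Ser-TGA, 3.22 for mt-Arg-TCG, 2.46 for mt-Gly-TCC and 2.21 for mt-Lys-TTT, close to those after TMM scaling.

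As shares of mature mitochondrial reads, a scaling chosen after the data were seen, only mt-Ser-TGA of the 4 was called at D3. Under this scaling 10 of all 165 sums were called higher at D3 and 116 lower, and 44.2% were called for the interaction. mt-Ser-GCT alone held 121572 of the 255169 reads. After TMM scaling mt-Pro-TGG, mt-Cys-GCA and mt-Ala-TGC had larger values at D3 than mt-Ser-TGA (5.08, 4.36 and 4.23). mt-Ser-TGA took 1.31% to 1.72% of mature mitochondrial reads in the 6 WT libraries. In NS-KO it took 1.01% and 2.15% on D0, 5.57% and 7.39% on D3 and 0.755% and 1.26% on D27. The log2 fold change at D3 was 2.07 (SE 0.39, limma adjusted p = 0.000423), and the interaction with D0 was 2.07 (SE 0.55, adjusted p = 0.01108). mt-Gly-TCC kept 5.40% to 7.71% of mitochondrial reads in WT and 5.53% to 8.77% in NS-KO, and its difference at D3 was 0.41 (SE 0.31, adjusted p = 0.2336). mt-Arg-TCG stood at 1.24 (SE 0.56, adjusted p = 0.05591) and mt-Lys-TTT at 0.26 (SE 0.41, adjusted p = 0.562).

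**Figure D3:**
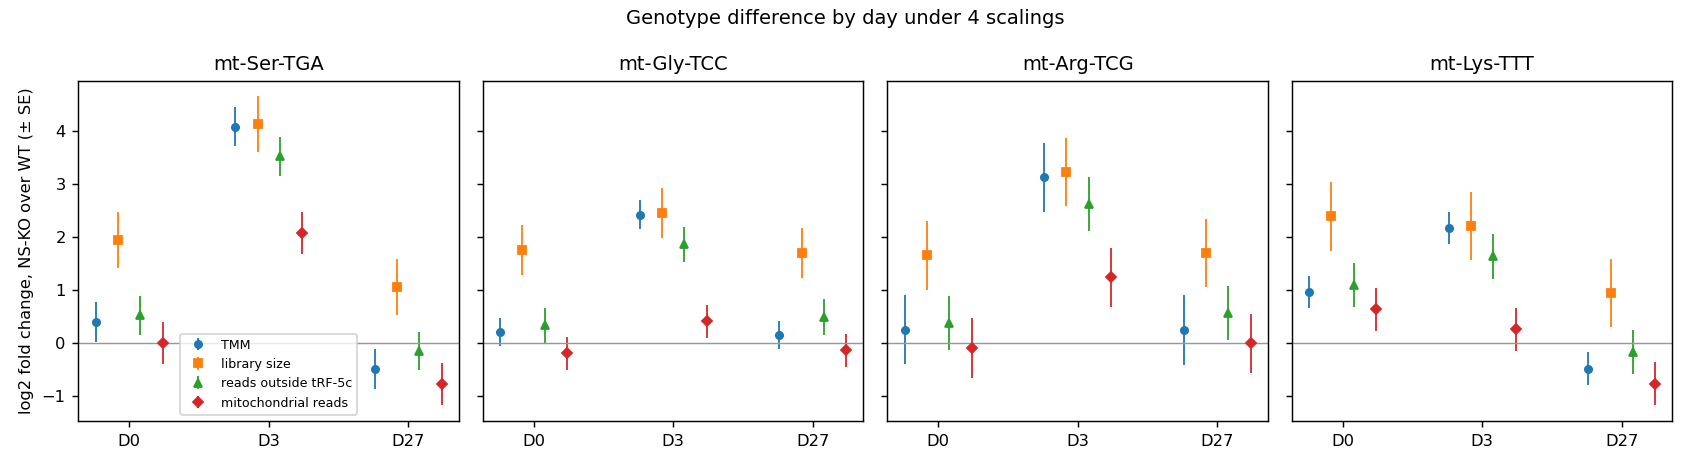
Log2 fold change of NS-KO over WT (y axis, ± SE, 2 libraries per group) at D0, D3 and D27 for 4 tRNAs under TMM scaling, library size alone, reads outside tRF-5c and mature mitochondrial reads. At D3 mt-Ser-TGA was above 0 under each of the 4, from 2.07 to 4.12, while values at D0 and D27 moved with the scaling.

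The rise at D3 was shared with most of the mitochondrial set. Of the 17 other mitochondrial tRNAs of the list, mt-Tyr-GTA was not analysed here and 16 were tested. At D3, 14 of these 16 were called higher in NS-KO and 0 lower, with a median of 2.59, while 22.4% of all sums were called higher. The range ran from 0.66 for mt-Ile-GAT, which was not called, to 5.08 for mt-Pro-TGG. By size at D3 mt-Ser-TGA ranked 4 of 20 mitochondrial sums, mt-Arg-TCG 7, mt-Gly-TCC 12 and mt-Lys-TTT 16.

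Nuclear tRNAs with the same anticodons went the other way or were not called. At D3, where 10.9% of all sums were called lower, 0 of 5 were higher and 2 were lower: Ser-TGA (-1.36, SE 0.37, limma adjusted p = 0.01535) and Gly-TCC (-1.76, SE 0.55, adjusted p = 0.03416). The values for Asp-GTC (-0.74), Lys-TTT (-0.52) and Arg-TCG (-0.29) did not pass. Over days 3 of the 5 were lower and 0 higher, beside 17.6% of all sums called lower.

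The sums whose levels ran most like those of the 4 tRNAs over the 12 libraries were themselves mostly mitochondrial. Over log2 CPM after TMM scaling, mt-Ser-TGA was most like mt-Pro-TGG (Pearson r = 0.99), mt-Gln-TTG (0.98) and mt-Cys-GCA (0.96). mt-Gly-TCC was most like mt-Thr-TGT (0.97), mt-Glu-TTC (0.96) and mt-Pro-TGG (0.96). mt-Arg-TCG was most like mt-Cys-GCA (0.96), mt-Ala-TGC (0.95) and mt-Glu-TTC (0.93). mt-Lys-TTT was most like the precursor of mt-Leu-TAA (0.94), the precursor of nuclear Lys-TTT (0.91) and mt-Gln-TTG (0.91). These values are descriptions over libraries that share their depth and scaling.

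By subtype, 8 sums of the 4 tRNAs passed the filter among 339 of 898. They were fragments of no named class (Other) of each tRNA, and the 5′ classes tRF-5a, tRF-5b and tRF-5c of mt-Ser-TGA, in order of increasing length. The last was tiRNA-3 of mt-Gly-TCC, a class of 3′ parts left by a cut at the anticodon. It held only 0.586% of mt-Gly-TCC reads. The fragments 33-71, 34-71 and 35-71, which also begin at or near the anticodon, were listed as Other. Over days 7 of 8 were called higher, beside 38.3% of all subtype sums, and tiRNA-3 of mt-Gly-TCC was not (0.61, SE 0.31, limma adjusted p = 0.138), though it was called with library size alone (1.29, adjusted p = 0.003177). At D3 all 8 were called, beside 28% of all. At D0, 1 of 8 was called, Other of mt-Lys-TTT (1.40, SE 0.40, adjusted p = 0.04591), beside 12.4% of all. At D27 0 of 8 were called in limma and none had an unadjusted p under 0.05, beside 7.96% of all.

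At D3 tRF-5b of mt-Ser-TGA was higher by 4.85 on the log2 scale (SE 0.49, limma adjusted p = 5.29e-05) and its Other fragments, which take in 5′ and internal pieces, by 4.14 (SE 0.37, adjusted p = 1.948e-05). Other of mt-Arg-TCG followed with 3.25 (SE 0.60), then tRF-5c of mt-Ser-TGA with 3.04 (SE 0.67) and tRF-5a with 2.63 (SE 0.47). The interaction of genotype with D3 against D0 passed for 5 of 8 sums, beside 13.9% of all: tRF-5b, tRF-5a and Other of mt-Ser-TGA, and Other of mt-Gly-TCC and mt-Arg-TCG. With library size alone tRF-5b and Other of mt-Ser-TGA stayed called, and tRF-5a (adjusted p = 0.286), Other of mt-Gly-TCC (0.71) and Other of mt-Arg-TCG (1.72) did not pass. Leaving out 1 library reduced this to 2 (either WT D0 library) or 3 (WT D3 replicate 1, either NS-KO D0 library or NS-KO D3 replicate 2).

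Single fragments were compared at lower counts. Of the 4686 sequences 995 reached 20 CPM in at least 1 library, and 599 of these in exactly 1. Only in NS-KO D3 libraries did 450 of the 995 reach it, so their count is a description. This limit was 1.63 to 5.51 reads in WT and 0.939 to 4.43 in NS-KO, so it was passed more easily in the shallow NS-KO libraries. Over days 147 of the 995 were called higher and 0 lower, with 6.04% of all 22065 fragments called and 3.81% called higher. At D3, 424 were called higher and 0 lower, beside 10.9% of all called and 10.3% called higher. Without any 1 WT library the count over days fell to between 37 (WT D0 replicate 2) and 83 (WT D3 replicate 2). It rose to between 305 and 482 without NS-KO D0 replicate 1, NS-KO D27 replicate 2 or either NS-KO D3 library, and at D3 it was lowest, at 259, without WT D3 replicate 1. Of the 424, 207 were from mt-Ser-TGA, 203 from mt-Gly-TCC, 12 from mt-Arg-TCG and 2 from mt-Lys-TTT.

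The 5 fragments with the largest called change over days came from mt-Ser-TGA and mt-Gly-TCC. mt-Gly-TCC 34-67, a piece without the CCA tail, was at 3.76 to 25.5 CPM in the WT libraries, while NS-KO gave 84.7 and 107 on D0, 786 and 1272 on D3 and 63.9 and 34.8 on D27. In reads these were 1 to 4 in each WT library and 6, 5, 174, 162, 3 and 2 in the NS-KO libraries, so that only D0 and D3 were above the WT range in reads. Its log2 fold change over days was 2.32 (SE 0.27, limma adjusted p = 0.003781). mt-Ser-TGA 1-26 was at 12.4 to 98.1 CPM in WT, while NS-KO gave 198 and 575 on D0, 966 and 1736 on D3 and 128 and 139 on D27. Its log2 fold change over days was 2.20 (SE 0.41, limma adjusted p = 0.01281). The others were mt-Gly-TCC 35-66 (2.02), mt-Ser-TGA 1-24 (1.96) and mt-Gly-TCC 34-66 (1.90). The sequences of the first pair and of mt-Ser-TGA 1-24 are given in full, to be set against the mature tRNAs.
mt-Gly-TCC 34-67: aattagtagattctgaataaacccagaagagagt
mt-Ser-TGA 1-26: gagaaagacatataggatatgagatt
mt-Ser-TGA 1-24: gagaaagacatataggatatgaga

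Among the most abundant fragments, a pair that differs by 1 base had different values in NS-KO. mt-Gly-TCC 33-71, which starts at the last base of the anticodon, was at 436 to 1656 CPM in WT, while NS-KO gave 1511 and 1342 on D0, 452 and 817 on D3 and 1916 and 2069 on D27. mt-Gly-TCC 34-71, which starts directly after the anticodon, was at 138 to 368 CPM in WT, while NS-KO gave 2146 and 1704 on D0, 1779 and 1249 on D3 and 852 and 608 on D27. In CPM the shorter fragment was above the WT range in all 6 NS-KO libraries, and the longer one overlapped it in 4. How many fragments separated the genotypes in this way was not counted. With library size alone, 976 of all 22065 fragments were called higher in NS-KO over days in limma. After TMM scaling the shorter fragment was not called at D0 (1.37, limma adjusted p = 0.405) and was at D3 (2.58, adjusted p = 0.00601). The log2 fold change over days was 1.49 (SE 0.30, limma adjusted p = 0.01621) for the shorter and -0.18 (SE 0.26, adjusted p = 0.6394) for the longer. The difference between the pair was not tested.

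The start position of all mt-Gly-TCC reads, which does not depend on the scaling of libraries, was then tabulated, a measure chosen after these values were seen and given without a test. Reads starting at base 33 made up 44.3% to 55.9% of mt-Gly-TCC reads in WT. In NS-KO their share was 37.7% and 30.9% on D0, 12.0% and 10.7% on D3 and 46.8% and 48.6% on D27. Only at D0 and D3 were both NS-KO libraries outside the WT range. In CPM, reads starting at base 33 were at 1484 to 5030 in WT. In NS-KO they were at 5211 and 3941 on D0, 3026 and 4704 on D3 and 7196 and 6051 on D27. Reads starting at base 34 made up 14.6% to 21.95% in WT, 33.1% and 32.1% in NS-KO at D0, and 30.2% and 22.7% at D3. At D27 they made up 20.8% and 18.3%. The ratio of reads starting at base 34 to reads starting at base 33 was 0.268 to 0.465 in WT. In NS-KO this ratio was 0.878 and 1.04 on D0, 2.53 and 2.12 on D3, then 0.444 and 0.376 on D27. The D27 libraries of NS-KO thus lay within the WT range.

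The 3′ ends of mt-Gly-TCC reads were outside the WT range in NS-KO at D3. Ends were taken by position, whether or not the last base matched the CCA tail. C70T was seen in 1592 of 9397 reads over base 70, and in all but 89 of these it was the last base. Reads that ended in the last 3 bases, the CCA tail, made up 69.3% to 84.8% in WT, 80.9% and 74.1% in NS-KO at D0, and 77.0% and 66.8% at D27, against 42.4% and 30.6% at D3. The level of these reads in CPM was not lower: it was 2228 to 7287 in WT. In NS-KO it was 11170 and 9459 on D0, 10740 and 13450 on D3 and 11840 and 8311 on D27. Averaged over days, the share ending in the last 3 bases was 14.6 percentage points lower in NS-KO. This did not pass when genotype labels were exchanged within each day (exact permutation, two-sided p = 0.05556, adjusted p = 0.2024 over 34 tRNA sums). Mean length was 34.3 to 36.6 nt in WT and 32.96 to 35.8 nt in NS-KO (difference -1.04 nt, exact permutation p = 0.02778, adjusted p = 0.1349).

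**Figure D4:**
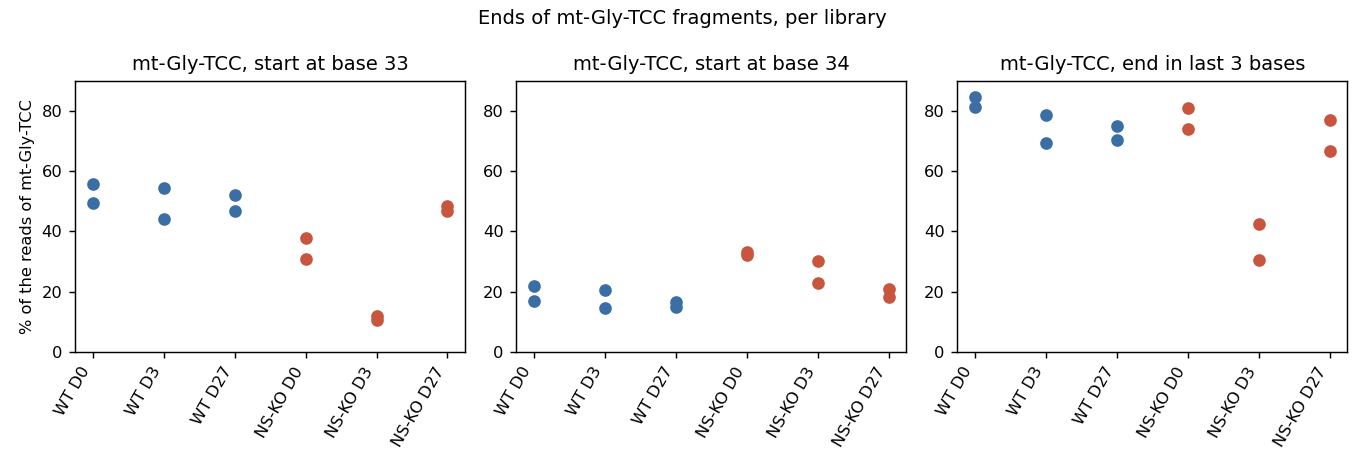
Percent of mt-Gly-TCC reads (y axis) that start at base 33, start at base 34 or end in the last 3 bases, in every library (points, 2 per group), WT in blue and NS-KO in red. At D3 the NS-KO pair is low for starts at base 33 (12.0% and 10.7%) and for ends in the last 3 bases (42.4% and 30.6%). These are shares: in CPM the pair was at 3026 and 4704 for the starts (WT 1484 to 5030). For the ends it was at 10740 and 13450 (WT 2228 to 7287).

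A second class of reads was placed on mt-Ser-TGA beside its 5′ fragments. Of 634 such reads from base 37 or 38 to base 52, of 15 to 16 nt, 589 matched mt-Ser-TGA with a mismatch. C52A, positions counted from the 5′ end of the tRNA with its listed base first, was seen in 533 of all 1395 reads over base 52. In all but 4 of these 533 it was the last base of the read. Mismatches at the last base were not limited to this class. They were seen in 63.3% of all mt-Ser-TGA reads with a mismatch, 67.1% of those of mt-Gly-TCC and 69.2% of those of mt-Arg-TCG. The values were 59.9% for mt-Lys-TTT and 69.6% for mt-Asp-GTC. Whether the short reads that end at base 52 came from mt-Ser-TGA was not tested. The reads from base 37 or 38 to base 52 made up 19.3% to 40.9% of mt-Ser-TGA reads in WT. In NS-KO they made up 21.2% and 15.5% on D0, 2.01% and 1.62% on D3 and 17.95% and 16.1% on D27. In CPM they were at 160 to 601 in WT and 298 to 682 in NS-KO, ranges that overlap. The 5′ fragments, those that start at base 1, were at 315 to 847 CPM in WT, while the NS-KO libraries gave 1285 and 3068 CPM on D0, 7641 and 16160 on D3 and 1064 and 1860 on D27.

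In the tests of shape, which need 50 reads in every library and so took in only mt-Ser-TGA and mt-Gly-TCC of the 5 tRNAs, no measure was called for any of 34 tRNA sums (0%). The smallest p that this exact permutation can give is 0.009259. mt-Ser-TGA reads were 18.1 to 20.1 nt long on average in WT and 19.7 to 21.5 nt in NS-KO (difference 1.80 nt, exact permutation p = 0.01852, adjusted p = 0.1349). The share starting at base 1 was 10.9 percentage points higher in NS-KO (exact permutation p = 0.03704, adjusted p = 0.2099). Perfectly matching reads made up 31.0% to 52.2% in WT and 53.1% to 62.2% in NS-KO, ranges that did not overlap (exact permutation p = 0.009259, adjusted p = 0.0787). How many of the 34 sums separated the genotypes in this measure was not counted. The mt-Ser-TGA reads without a perfect match take in the 589 reads that end at base 52 with a mismatch. They also take in reads with C29T, seen in 645 of 1645 reads over base 29. In 612 of these 645 it was not the last base of the read.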

How the data were processed

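tRF-seq libraries of size-selected liver RNA were sequenced on an Illumina NextSeq system. The authors used FastQC, cutadapt and Bowtie: reads of 14 to 40 nt were placed on mature tRNA sequences, at most 1 mismatch being tolerated, and the remainder on precursors; versions and the genome build are not given in the sources used here. The deposited table gives whole reads per sequence and library beneath each tRNA, with text lines between blocks. Because of these lines its values entered as a mixed unit, and limma-trend was used where a count model had been planned. Files of single libraries were not used.

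Reads were summed per tRNA isodecoder set and per subtype, with mature and precursor forms apart. Sums needed 10 reads at the median library (70.44 CPM) in 2 libraries and 15 reads in all; single fragments needed 20 CPM in 1 library. Log2 CPM (prior count 2, TMM) was fitted with 1 mean per group and 6 residual degrees of freedom in limma 3.58.1 (R 4.3.3), with Benjamini-Hochberg adjustment over all features and a threshold of 0.05. Fold changes are on this log2 scale. The script was tested on simulated data. Shape was compared by exact permutation. Intervals are those of the limma fit, and floors of 3 reads cover counting error only, since PCR reads without molecular identifiers are not independent molecules.

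The members and lists were chosen with earlier results of these data known. Named fragments were, for each tRNA, the 3 with the most reads, and the 5 with the largest called change over days in each direction; the text describes some of the former. Alternatives were other scalings, voom weights, prior count 0.5, other filters, perfect matches only, shared sequences in full, each library left out, and a replicate block.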

Additional observations from a re-analysis of the deposited data

Results flagged for a closer look

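Groups held 2 libraries each, too few to look for a library far from the rest. For 7 sums the difference between genotypes at D3 differed from that at D0 in an interaction test (limma, adjusted over all sums of the same kind). Among tRNA sums these were mt-Ser-TGA (3.68, SE 0.53) and mt-Gly-TCC (2.22, SE 0.38), in log2 units. Among subtype sums these were tRF-5b (4.37, SE 0.69), Other (3.46, SE 0.52) and tRF-5a (2.47, SE 0.67) of mt-Ser-TGA, Other of mt-Gly-TCC (2.11, SE 0.46) and Other of mt-Arg-TCG (2.92, SE 0.84, adjusted p = 0.0415). The subtype sums are parts of the tRNA sums and share their reads. With library size alone the interactions of mt-Gly-TCC (0.70, adjusted p = 0.3749), of its Other fragments, of Other of mt-Arg-TCG and of tRF-5a did not pass. Mature mitochondrial reads as a whole were also highest in the NS-KO D3 libraries (30.3% and 50.1%, next highest 25.0%). Their part in these results was not tested beyond the scaling by mitochondrial reads, which called 44.2% of all tRNA sums for the interaction. Under it mt-Ser-TGA kept its interaction (2.07, limma adjusted p = 0.01108) and mt-Gly-TCC did not pass (0.60, adjusted p = 0.2643).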

How the results depend on the processing

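At D3 all 4 tRNA sums were called higher in NS-KO after TMM scaling, with library size alone and with reads outside tRF-5c, under each filter, with voom weights or the replicate block, and without any 1 library (4 to 4). Scaling by library size alone moved the number of tRNA sums called to 4 at D0 and 2 at D27, beside 60.6% and 63.6% of all. For the interaction at D3 it left 1 tRNA sum (mt-Gly-TCC lost) and 2 subtype sums, beside 24.8% and 21.5% of all. Scaling by mature mitochondrial reads was chosen after the data were seen. It left 0 tRNA sums over days, 1 at D3, 2 for D3 against D0 in NS-KO and 1 for the interaction. The shares of all sums called were 60%, 76.4%, 65.5% and 44.2%, most of them lower. Subtype sums numbered 1 over days, 2 at D3 and 2 for the interaction, beside 57.2%, 68.4% and 33% of all. tRF-5a of mt-Ser-TGA over days turned to -0.024 (limma adjusted p = 0.9507). Without both NS-KO D3 libraries, also chosen after the data were seen, 0 tRNA sums were called over days and mt-Ser-TGA turned to -0.0072. Single fragments called over days numbered 486 with voom weights and 81 under the filterByExpr rule, and 82 at D3 under that rule, where fewer fragments were tested; the cause of the voom difference was not tested. With 1 library left out, single fragments called ranged from 37 to 482 over days and 259 to 552 at D3, subtype sums from 5 to 7 over days, 6 to 8 at D3 and 2 to 5 for the interaction, and tRNA sums from 3 to 4 over days, 0 to 1 at D0, 0 to 0 at D27, 3 to 4 for D3 against D0 in NS-KO and 2 to 3 for the interaction. The call of mt-Arg-TCG over days was lost without 1 of 6 libraries (0.92 to 1.22), and that of mt-Lys-TTT with perfect matches only (0.63, adjusted p = 0.05977). The replicate block gave 4 tRNA sums over days, 4 at D3 and 3 for the interaction. The interaction then took in mt-Arg-TCG, and no other call among tRNA sums changed. Deviations of same-numbered libraries correlated at -0.34 to 0.54 over 15 pairs of groups, 3 above 0.1. With 2 libraries per group this cannot decide whether the numbers pair the samples. Of 508 comparisons of a single tRNA sum with its alternative value, 468 kept direction and side of the threshold. No measure of shape passed under either alternative, but a sum alone at the smallest possible p could not pass after adjustment. The count models edgeR and DESeq2 were not run. Depth limits mt-Asp-GTC, mt-Lys-TTT and mt-Arg-TCG most.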
